A study of Mus musculus with 31 samples.

Results

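GABA-A receptor subunit genes were followed through ribosome-bound RNA from 3 parts of mouse sensory neurons. The members were the 7 subunit genes Gabra2, Gabra3, Gabra5, Gabrb1, Gabrb2, Gabrg1 and Gabrg3, of 55536 gene identifiers in all. They were taken by symbol from a list chosen by the genes' counts and fold changes in these same libraries, so their values below are a description and no p-value is given for them. Other genes of the receptor family and of GABA signalling were described from 6 further lists with 51 genes, and subunit genes outside the lists were not analysed here.

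The study used translating ribosome affinity purification (TRAP), in which an eGFP-tagged ribosomal protein, L10a, is pulled down together with the RNA on its ribosome. All mice carried the floxed tag (L10a-eGFP-fl/fl). The Cre libraries came from Nav1.8-Cre;L10a-eGFP-fl/fl mice, in which Cre from the Nav1.8 sodium channel gene (Scn10a) turns the tag on in neurons that express or once expressed Nav1.8, mostly nociceptors, so other sensory neurons are largely untagged. The control libraries came from L10a-eGFP-fl/fl mice without Cre and hold RNA recovered with no tagged ribosome. Central axons were sampled as lumbar dorsal roots together with spinal cord, peripheral axons as sciatic nerve and somas as lumbar dorsal root ganglia (DRG). Central axons and one set of somas were processed as batch 1, peripheral axons and a second set of somas as batch 2. There were 31 libraries in 8 groups, with 4 libraries a group except 3 for the peripheral axon controls, and the labels number them as biological replicates. The labels used here give no age, sex or pooling of animals.

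GABA-A receptors are chloride channels built from 5 subunits, usually alpha and beta subunits, which form the GABA binding site between them, with a gamma or delta subunit. On the central terminals of sensory neurons, where the transporter Slc12a2 keeps internal chloride high, their opening depolarises the terminal and reduces transmitter release, a process called presynaptic inhibition. The same receptors are abundant on the spinal neurons that surround those terminals, so a spinal cord sample holds both sources.

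The members sit in clusters of subunit genes (coordinates from GENCODE M21 on GRCm38). Gabrg1 (chr5:70751047-70842617, minus strand) lies 115.0 kb from Gabra2 (chr5:70957597-71095849, minus strand), and Gabrb1 (chr5:71658113-72149037, plus strand) lies further along the same cluster, overlapping the start of Gabra4 by 196 bases. Gabrg3 (chr7:56716465-57387188) and Gabra5 (chr7:57407672-57510059), both on the minus strand, are 20.5 kb apart. Gabra3 (chrX:72432681-72656848, minus strand) lies between Gabre, 157.9 kb away, and Gabrq, 168.3 kb away. Gabrb2 (chr11:42419757-42629028, plus strand) lies 98.7 kb from Gabra6. The strand handling of the counting is not given in the sources used here. Exon bases shared with a gene on the opposite strand were 4.98% of Gabra5 (with Gm9962), 0.33% of Gabrb1 (with Gabra4) and none in the other members, so reads from those bases cannot be assigned to one gene.

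The 250 bases upstream of the start site are shown for 4 members because these carry the contrasts described below: Gabra2 and its neighbour Gabrg1, which differed in RPKM in batch 2 Cre somas, and Gabra3 and Gabra5, which were higher in the central axon libraries than in somas. They are RefSeq sequences on GRCm38.p6, all from the minus strand and written 5′ to 3′ in the direction of the gene. None of these windows overlaps an annotated exon. Capitals mark every match, on either strand, of the TATA box TATAAA, the homeodomain core TAATTA, the CRE TGACGTCA and the CCAAT box CCAAT.
Gabra2 (chr5:71095850-71096099): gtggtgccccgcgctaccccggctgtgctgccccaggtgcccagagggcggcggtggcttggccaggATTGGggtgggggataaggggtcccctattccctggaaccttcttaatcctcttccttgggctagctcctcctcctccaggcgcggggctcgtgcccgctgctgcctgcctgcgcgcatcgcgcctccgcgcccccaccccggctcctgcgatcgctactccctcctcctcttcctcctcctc
Gabrg1 (chr5:70842618-70842867): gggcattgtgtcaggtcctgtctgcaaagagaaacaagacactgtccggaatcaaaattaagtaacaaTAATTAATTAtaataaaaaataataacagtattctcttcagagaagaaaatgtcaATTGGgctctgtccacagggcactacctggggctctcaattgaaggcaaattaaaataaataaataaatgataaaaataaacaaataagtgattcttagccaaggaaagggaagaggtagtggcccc
Gabra3 (chrX:72656920-72657169): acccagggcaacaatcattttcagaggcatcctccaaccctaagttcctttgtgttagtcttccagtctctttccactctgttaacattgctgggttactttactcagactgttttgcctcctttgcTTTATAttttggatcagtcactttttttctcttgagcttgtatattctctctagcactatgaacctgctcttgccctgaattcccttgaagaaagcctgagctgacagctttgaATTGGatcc
Gabra5 (chr7:57510060-57510309): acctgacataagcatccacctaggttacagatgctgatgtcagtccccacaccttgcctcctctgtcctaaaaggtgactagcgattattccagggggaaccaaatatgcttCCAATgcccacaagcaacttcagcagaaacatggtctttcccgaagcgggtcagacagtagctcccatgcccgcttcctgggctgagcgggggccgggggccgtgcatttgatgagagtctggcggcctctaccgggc
The Gabra2 window was 70.0% G and C with 18 CpG pairs, and the Gabrg1 window 35.6% with 1 CpG. Gabra3 had 42.4% and 0 CpG, and Gabra5 56.4% and 9 CpG, beside medians of 52.4% and 6 CpG over 32851 RefSeq promoter windows of this length. The neighbours on chromosome 5 therefore have windows with a high and a low share of G and C. TAATTA stood 2 times, overlapping, in the Gabrg1 window and in 4.84% of all windows. TATAAA stood in the Gabra3 window and in 12.4% of all windows. CCAAT was in all 4 windows shown, which were chosen from 11 windows of the 7 members, and in 33.8% of all windows. TGACGTCA was found in none of the 4 and in 1.55% of all windows. These matches describe letters and not binding sites. The windows of Gabrb1, which lie partly in exons of Gabra4 and Gm38562, are not shown. Nor are those of Gabrb2 and Gabrg3 and a second Gabra3 window, which has 41 exon bases. CCAAT was absent from the windows of Gabrb1 and Gabrg3 and from windows 1 and 3 of Gabrb2.

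Depth ran from 3.60 to 19.6 M counts per library (M, mega), and 3 counts, taken as the floor of detection, corresponded to 0.153 to 0.833 CPM (the count scaled to a library total of 1 M). Scn10a, which checks the labels, was at 45.1 to 421 CPM in central axon Cre libraries and at 0 to 29.9 CPM in their controls, at 42.1 to 304 against 0 to 127 CPM in peripheral axons, and at 312 to 505 CPM in batch 1 Cre somas. In somas the controls reached 625 CPM, so Scn10a did not separate Cre from control there. The batch 1 soma controls stand apart, with 4934 to 7889 genes at 10 or more counts, as does central axon control replicate 3 with 7251, where the other libraries held 9606 to 16509. Soma control replicate 3 of batch 1 had a normalization factor of 0.0547, where the other libraries of that comparison had 1.30 to 1.78. Of the 7 members, 6 or 7 had more than 3 counts in each central axon Cre library and in each batch 2 Cre soma library, 0 to 6 in peripheral axon Cre libraries and 0 or 1 in batch 1 soma controls. In bulk samples, fewer cells of a type and less RNA per cell cannot be told apart.

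**Figure D1:**
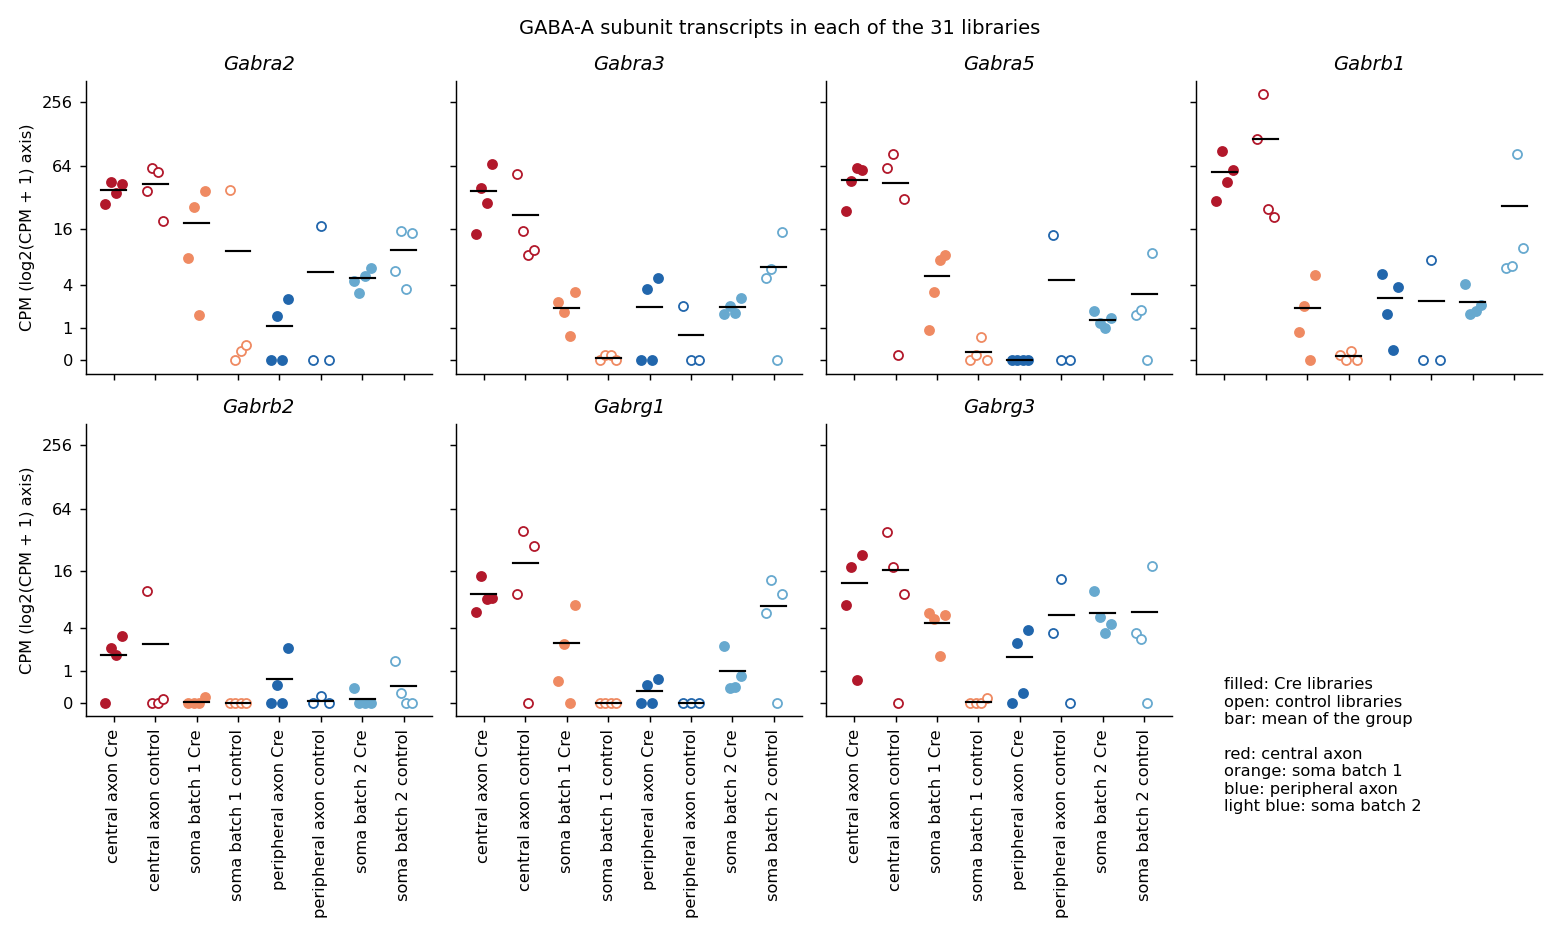
CPM of each subunit gene in each of the 31 libraries (points, filled for Cre and open for control) by group, on a log2(CPM + 1) axis, with the group mean as a bar. Gabra5 is highest in central axon libraries, Cre (23.6 to 61.0 CPM) and control (up to 84.1 CPM), and has 0 counts in all 4 peripheral axon Cre libraries.

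Gabra2 encodes an alpha subunit that is common on sensory neuron and dorsal horn membranes. It was at 28.1, 45.7, 35.4 and 43.1 CPM in central axon Cre libraries 1 to 4, and at 37.0, 61.9, 55.9 and 19.1 CPM in their controls. Batch 1 Cre somas gave 7.98, 25.8, 1.64 and 37.2 CPM, and batch 2 Cre somas 4.56, 3.28, 5.19 and 6.29 CPM. Gabra2 was thus detected in all 8 Cre soma libraries, and the batch 1 somas varied far more than those of batch 2. One batch 1 soma control, replicate 1, had 37.7 CPM, as much as any Cre soma, while the other 3 were at 0 to 0.376 CPM. Batch 2 soma controls gave 5.81, 15.3, 3.61 and 14.4 CPM and overlapped the Cre somas. In sciatic nerve Gabra2 was at 0, 1.59, 0 and 2.77 CPM in Cre libraries and at 0, 17.0 and 0 CPM in controls.

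Gabra3 encodes the alpha3 subunit. Central axon Cre libraries had 14.1, 39.5, 28.2 and 67.3 CPM, and their controls 54.2, 15.0, 8.64 and 9.72 CPM. The highest control lay above 3 of the 4 Cre libraries, so the groups overlapped. Cre somas had 2.49, 1.85, 0.690 and 3.31 CPM in batch 1 and 1.69, 2.18, 1.78 and 2.80 CPM in batch 2, with the wider range in batch 1. The batch 1 soma controls held 2 counts in all, against 76 in the Cre somas, a ratio of 33.0 (8.83 to 277), scaled by the total counts of the groups and with its 95% counting interval. Those controls held few genes of any kind, 4934 to 7889 at 10 or more counts. The batch 2 soma controls, at 4.81, 6.17, 0 and 14.8 CPM, overlapped their Cre somas. In nerve, 2 Cre libraries had 3.65 and 4.85 CPM and 2 had no count, beside 2.20, 0 and 0 CPM in the controls.

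Gabra5 encodes the alpha5 subunit, known mainly from extrasynaptic receptors. It was at 23.6, 46.6, 61.0 and 59.0 CPM in central axon Cre libraries and at 61.2, 84.1, 0.123 and 31.1 CPM in their controls. A single control, replicate 3, was below the floor. Of the other controls, replicates 1 and 2 lay above the highest Cre library and replicate 4 within the Cre range. Batch 1 Cre somas had 0.932, 3.31, 7.59 and 8.60 CPM, and batch 2 Cre somas 1.87, 1.22, 1.02 and 1.49 CPM. The soma controls were at 0, 0.117, 0.647 and 0 CPM in batch 1, and at 1.66, 1.97, 0 and 9.08 CPM in batch 2. All 4 peripheral axon Cre libraries had 0 counts of Gabra5, which allows up to 0.730, 0.199, 0.732 and 0.520 CPM by the floor, counting error only. Of the nerve controls, replicate 1 had 13.9 CPM and the other two had 0.

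Gabrb1 encodes the beta1 subunit. Central axon Cre libraries had 29.8, 90.1, 44.9 and 59.2 CPM, and their controls 117, 305, 24.9 and 20.9 CPM. The 2 highest of these 8 libraries were controls. Batch 1 Cre somas had 0.83, 2.24, 0 and 5.29 CPM, and batch 2 Cre somas 4.18, 1.73, 1.88 and 2.29 CPM. Batch 2 soma controls had 6.31, 6.66, 83.6 and 10.2 CPM, all above the Cre somas of that batch. Gabrb1 was the only member with a count in every peripheral axon Cre library, at 5.35, 1.73, 0.244 and 3.81 CPM, the third of which is a single count. The nerve controls were at 0, 7.71 and 0 CPM.

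Gabrb2, the beta2 gene, was the lowest member per exon length in central axon and soma Cre libraries. Central axon Cre libraries had 0, 2.24, 1.81 and 3.25 CPM, and among their controls replicate 1 had 10.1 CPM while the other 3 had at most 0.102 CPM. Cre somas of both batches together held 7 counts, 6 of them in 1 library. In nerve, 2 Cre libraries had 0.465 and 2.25 CPM, and the other two had 0.

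Gabrg1 encodes the gamma1 subunit. It was at 6.04, 14.5, 8.32 and 8.52 CPM in central axon Cre libraries and at 9.45, 39.8, 0 and 28.2 CPM in their controls. Batch 1 Cre somas had 0.621, 2.53, 0 and 7.28 CPM, where all 4 controls had 0 counts. The mean of the batch 1 Cre somas was at least 7.35-fold higher than the controls, with 3 counts in each control library as the floor. Those controls held few genes of any kind, 4934 to 7889 at 10 or more counts. In batch 2 the groups overlapped, with 2.43, 0.386, 0.407 and 0.801 CPM in Cre somas and 5.97, 13.1, 0 and 9.52 CPM in controls. Nerve libraries held 11 counts in the Cre group and 0 in the controls.

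Gabrg3 encodes the gamma3 subunit. Central axon Cre libraries had 7.17, 17.7, 0.633 and 23.1 CPM, and their controls 38.7, 17.8, 0 and 9.42 CPM. Cre somas had 6.01, 5.06, 1.73 and 5.69 CPM in batch 1 and 10.1, 5.40, 3.56 and 4.46 CPM in batch 2, so Gabrg3 was present in all 8. Only 1 count was found in the 4 batch 1 soma controls, which held few genes of any kind (4934 to 7889 at 10 or more counts). The batch 2 soma controls had 3.48, 2.96, 0 and 18.2 CPM and overlapped the Cre somas. Nerve libraries had 0, 2.66, 0.244 and 3.81 CPM with Cre and 3.52, 13.4 and 0 CPM without.

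Levels of different genes were compared only after division by exon length, as CPM per kb of merged exons (RPKM). In central axon Cre libraries the order of mean RPKM was Gabra5 (16.0 ± 5.78, SD, n = 4), Gabra3 (9.49 ± 5.75), Gabra2 (4.98 ± 1.04), Gabrb1 (4.05 ± 1.86), Gabrg1 (1.19 ± 0.461), Gabrg3 (1.02 ± 0.848) and Gabrb2 (0.287 ± 0.214). Here Gabra5 and Gabra3, and Gabrb1 and Gabrg1, were the neighbours whose means differed by more than the SD of either. In batch 1 Cre somas the order began with Gabra2 (2.38 ± 2.13) and Gabra5 (1.72 ± 1.21), and no neighbours were further apart than their spread. In batch 2 Cre somas Gabra2 (0.632 ± 0.165), Gabra3 (0.539 ± 0.129), Gabrg3 (0.493 ± 0.244) and Gabra5 (0.471 ± 0.124) were within 1 SD of each next gene, above Gabrb1 (0.182 ± 0.0818), Gabrg1 (0.128 ± 0.123) and Gabrb2 (0.0147 ± 0.0294). In peripheral axon Cre libraries Gabra3 had the highest mean RPKM (0.542 ± 0.638) and no neighbours differed beyond their spread. In the central axon controls Gabra5 also led (14.8 ± 12.3), and in the batch 2 soma controls Gabrb1 led (1.93 ± 2.74), with a spread larger than the mean.

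The 3 alpha genes were also set against each other within a library, as shares of their summed RPKM where they had at least 50 counts. Gabra5 took 46.5 to 63.4% of this sum in the 4 central axon Cre libraries and 23.2 to 38.0% in the 4 batch 2 Cre somas, and Gabra2 took 13.2 to 24.2% and 30.7 to 46.0%. These ranges did not overlap, and they compare libraries of different batches. In batch 1 Cre somas, the somas processed with the central axons, Gabra5 took 15.7 to 86.7% and Gabra2 7.29 to 68.1%, and these ranges overlapped those of both other groups. Central axon controls 1, 2 and 4 had 52.4, 70.3 and 67.7% Gabra5, near the Cre libraries, and control 3 had 0.434%.

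**Figure D2:**
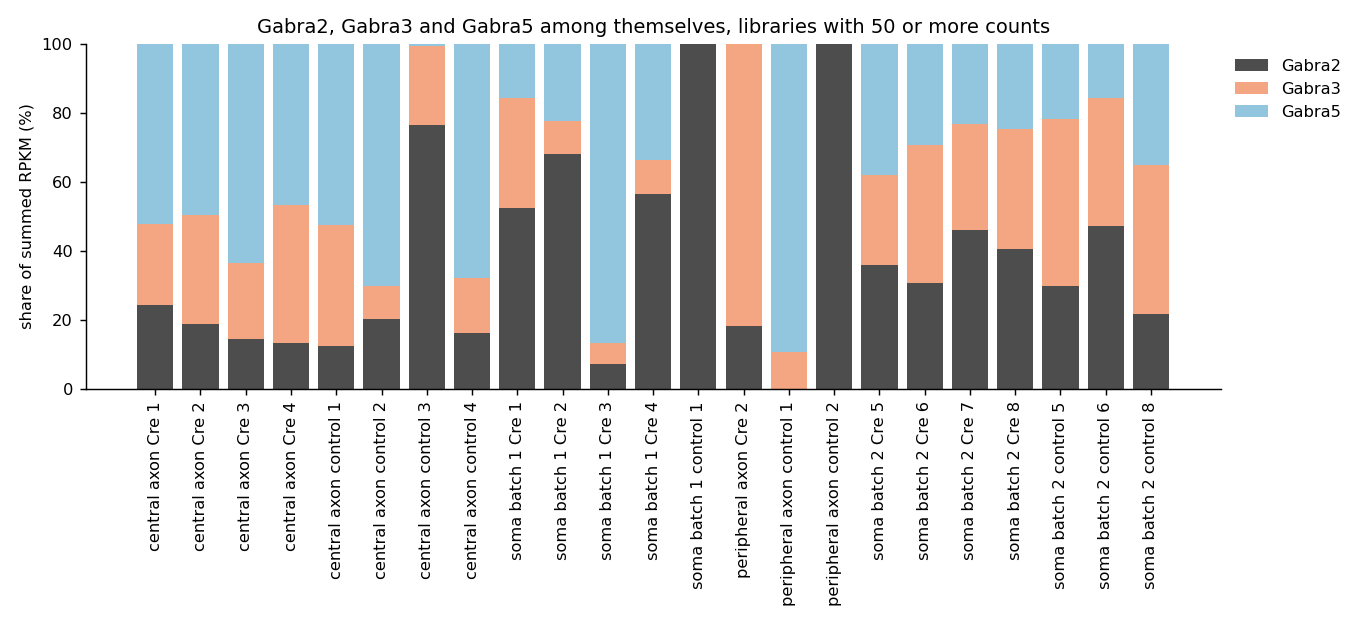
Shares (%) of Gabra2, Gabra3 and Gabra5 in their summed RPKM, one bar per library with at least 50 counts of the 3 genes. Gabra5 makes up 46.5 to 63.4% in central axon Cre libraries, and 3 of the 4 central axon controls show 52.4 to 70.3%.

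To separate sensory neuron RNA from spinal RNA, the central axon Cre libraries were compared with controls of the same tissue (edgeR's quasi-likelihood test, Benjamini-Hochberg adjustment over all genes tested, called at an adjusted p under 0.05). With all 8 libraries, no subunit was above the control level by more than its error. The log2 fold changes, Cre over control, were -0.14 ± 0.69 (SE) for Gabra2, 0.75 ± 0.95 for Gabra3 and 0.14 ± 1.14 for Gabra5. For Gabrb1 the value was -1.0 ± 0.81 and for Gabrb2 -0.54 ± 2.06. For Gabrg1 it was -1.0 ± 1.51 and for Gabrg3 -0.45 ± 1.63. All 7 pairs of groups overlapped, where 8.11% of all genes had groups that did not. None of the 7 was called by edgeR, where 0.0141% of all 14189 genes tested were, or by DESeq2, where 2.6% of 17050 were, and none had an unadjusted p under 0.05, where 4.82% of genes did. Single controls set several of these values. Without control replicate 1, Gabrb2 was at 5.19 ± 1.85, Gabra3 at 1.77 ± 0.97 and Gabrg3 at 0.46 ± 1.83, and without control replicate 2, Gabrb1 was at 0.03 ± 0.79. Without control replicate 3, which held few genes, the 7 values lay between -1.41 and 0.46, with Gabra5 at -0.29 ± 0.48. No subunit was called in any of the 8 fits that left out 1 library.

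Marker genes were read from the same fit, with no test of the difference between lists. All 11 nociceptor markers had a fold change above 0, with a median log2 value of 5.13 beside 0.11 for all genes. None of the 11 was called by edgeR, 8 had an unadjusted p under 0.05 and DESeq2 called 6. Of the 9 spinal inhibitory neuron markers, all were below 0 with a median of -0.54, and edgeR and DESeq2 called none, nor was any unadjusted p under 0.05. The 7 subunits had a median of -0.45. Most other marker lists were below 0 too, so a median of this size was not particular to inhibitory neurons. Medians were -0.84 for spinal excitatory neuron, -0.83 for astrocyte, -0.67 for oligodendrocyte and -0.74 for microglia and macrophage markers. They were -0.22 for Schwann cell, -0.59 for satellite glia and -1.31 for fibroblast markers. Motor neuron (0.75) and skeletal muscle markers (1.06) were above 0. Summed over the list, the nociceptor markers were at 1050 to 5780 CPM in Cre and 217 to 434 CPM in control libraries, and the inhibitory markers at 207 to 573 and 280 to 1100 CPM. Astrocyte markers were at 295 to 1330 and 1260 to 2160 CPM. The Cre library with the most nociceptor marker RNA, replicate 1 at 5780 CPM, had the fewest spinal inhibitory marker reads (207 CPM) and the lowest sum of the 7 subunits, 109 CPM beside 180 to 263 CPM in the other 3. Replicate 1 was the lowest Cre library for Gabra2, Gabra3, Gabra5, Gabrb1, Gabrb2 and Gabrg1, and the second lowest for Gabrg3. These are values of 1 library, and on the CPM scale more RNA from one source lowers the values of the others. The source of the subunit RNA was not tested.

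**Figure D3:**
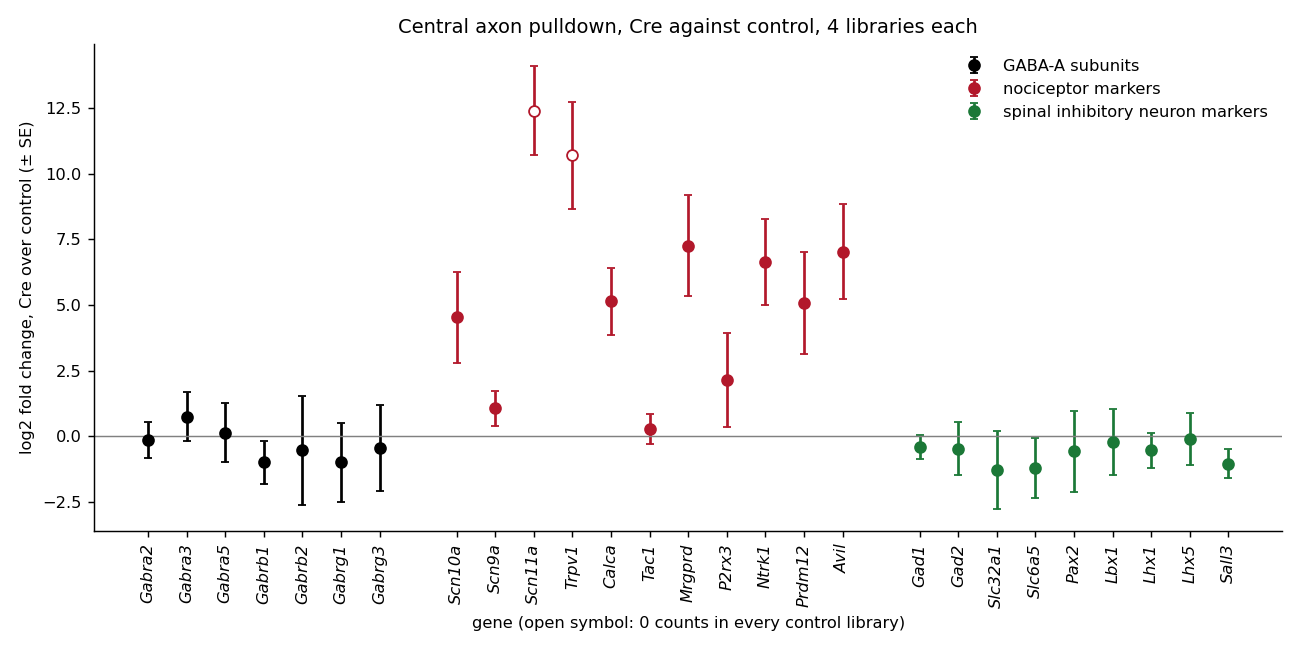
Log2 fold change (± SE) of central axon Cre over control libraries, 4 of each, for the 7 subunits, 11 nociceptor markers and 9 spinal inhibitory neuron markers. The subunits lie between -1.0 and 0.75, beside medians of 5.13 and -0.54 for the marker lists. Open symbols are genes with 0 counts in all controls, whose fitted value depends on the prior count.

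**Figure D4:**
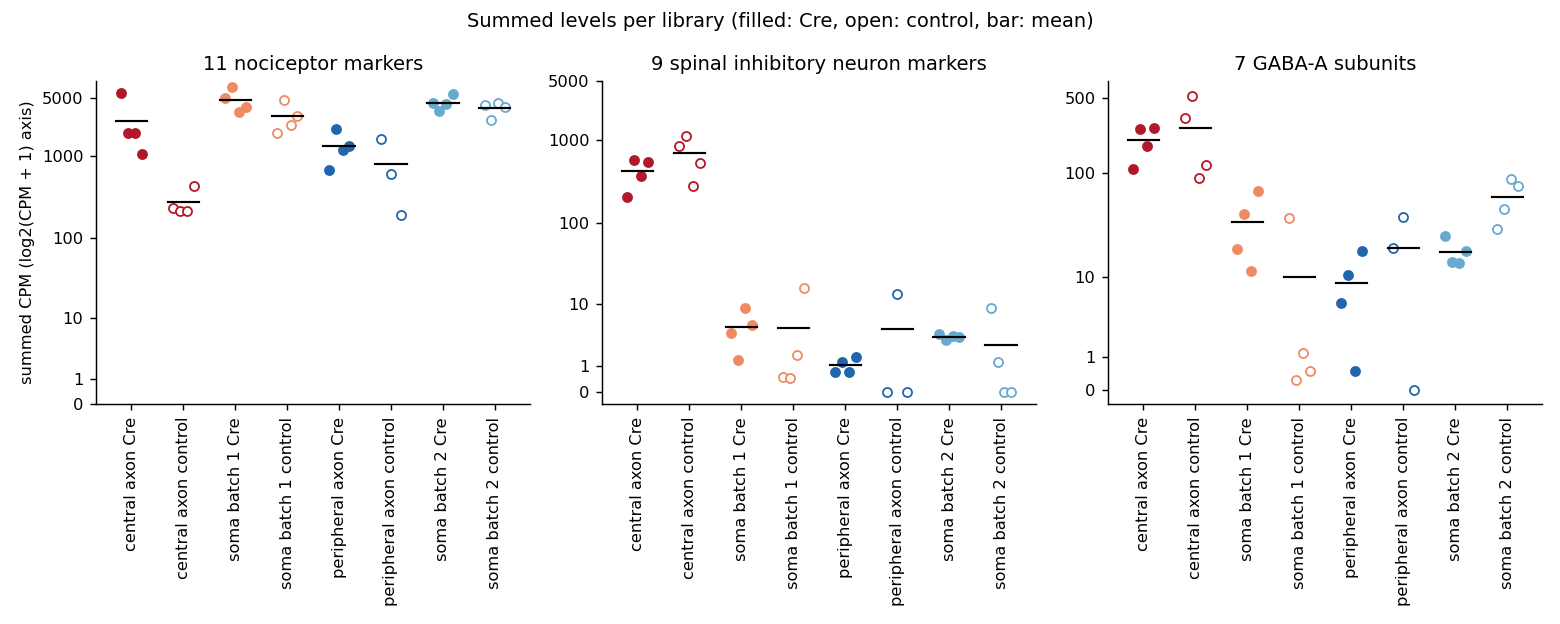
Summed CPM of the nociceptor markers, the spinal inhibitory neuron markers and the subunits in each library, on a log2(CPM + 1) axis, filled for Cre and open for control, with group means as bars. Subunits and inhibitory markers are high in both central axon groups (89.7 to 523 and 207 to 1100 CPM), while nociceptor markers separate Cre from control there.

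The same comparison in the other tissues gave few values that could be tested. In sciatic nerve 3 subunits passed the filter on low counts, with log2 fold changes of 1.64 ± 2.33 (Gabra3), -0.06 ± 2.04 (Gabrb1) and -1.80 ± 2.02 (Gabrg3). None was called by edgeR or DESeq2, beside 0.0% and 0.53% of all genes, or had an unadjusted p under 0.05, beside 3.68%. Each value rested on 1 control: without control replicate 1 Gabra3 was at 6.86 ± 3.61, and without control replicate 2 Gabrb1 was at 7.14 ± 2.98 and Gabrg3 at 0.06 ± 2.41. In the first 2 of these the controls that were left had 0 counts, so the fitted value depends on the prior count. Of the 11 nociceptor markers in nerve, 10 lay above 0 and 1 below, around a median of 0.79 (0.07 for all genes). Neither edgeR nor DESeq2 called any of them, and 0 had an unadjusted edgeR p under 0.05. In batch 1 somas 2 subunits passed, Gabra2 (0.57 ± 1.96, and 3.82 ± 2.16 without control replicate 1) and Gabrg3, which had 173 counts in the Cre libraries and 1 in the controls, a ratio of 150 (95% counting interval 26.6 to 5970). Those controls held few genes of any kind, 4934 to 7889 at 10 or more counts. Gabrg3 was called higher by edgeR, beside 4.37% of 11667 genes, and by DESeq2, beside 10.4% of 11054. With library size alone as the scaling it was called beside 19.1% of genes, so the background share moved with the scaling. The edgeR call was lost without soma control replicate 1, a or b. It was also lost with no filter on low counts (6.44 ± 2.30), where Gabrg1 was called in its place, and without control replicate 3 there were 3 calls, Gabra3, Gabra5 and Gabrg3. Of the 2 subunits tested, Gabrg3 had groups that did not overlap, where 28.4% of all genes tested did not, and neither did the groups of Gabra3 and Gabra5, which were not tested. Nociceptor markers were split in batch 1 somas, 5 above 0 and 6 below, around a median of -0.47 (-0.45 for all genes). There too edgeR and DESeq2 called 0 of them, and 0 had an unadjusted edgeR p under 0.05, beside 1752 of 11667 genes. Enrichment of nociceptor RNA with Cre was thus not shown by these markers in batch 1 somas.

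In batch 2 somas 6 subunits passed and none was called by edgeR, beside 0.0% of 15280 genes, or by DESeq2, beside 8.19% of 18634. Of the 6, 1 (Gabrb1) had an unadjusted p under 0.05, as 16.4% of genes did. Gabrb1 was 2.52 ± 1.13 CPM in Cre and 26.7 ± 38.0 CPM in control somas, with a log2 fold change of -3.08 ± 0.94. Control replicate 7 was at 83.6 CPM, and all 4 controls were above all 4 Cre libraries, and 11.9% of genes had groups that did not overlap. Gabrb1 was called when control replicate 5 was left out, and its value was -1.38 ± 0.61 when control replicate 7 was. The other values were -2.64 ± 1.26 for Gabrg1, -1.37 ± 1.14 for Gabra3, -0.96 ± 1.14 for Gabra5, -0.75 ± 0.77 for Gabra2 and 0.14 ± 1.14 for Gabrg3. Without control replicate 8, Gabra5 was at 0.41 ± 0.99 and Gabrg3 at 1.63 ± 1.10. Markers of several other cell types also had negative medians. Satellite glia markers, 4 genes of the cells that wrap DRG somas, were at 125 to 276 CPM in these Cre somas and 424 to 2240 CPM in the controls, with a median log2 fold change of -2.17. Fibroblast markers were at 134 to 266 and 647 to 2600 CPM (median -2.94), and DESeq2 called all 5 of them and 2 of the 4 satellite glia markers, while edgeR called none. Medians were -1.64 for microglia and macrophage, -1.05 for Schwann cell and -2.40 for skeletal muscle markers, and 0.26 for nociceptor markers. The part of these cells in the subunit values was not tested.

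Between compartments of Cre libraries, the central axon samples held more Gabra3, Gabra5 and Gabrb1 RNA than batch 1 somas. Their log2 fold changes were 3.70 ± 0.59, 2.75 ± 0.59 and 4.38 ± 0.85, with no overlap between the groups. Gabra2 (0.69 ± 0.63), Gabrg1 (1.48 ± 1.06) and Gabrg3 (0.93 ± 0.84) overlapped. Gabrb2 did not pass the filter, with 79 counts in central axons and 1 in somas, a ratio of 71.4 (12.4 to 2850). Thus 3 of the 6 subunits tested were called higher, where 8.63% of 14480 genes were, and 3 of 6 had groups apart, where 25.2% of genes did. When all 4 groups of the batch shared one fit, none of the 7 was called, and the share of all genes called in that fit is not given here. DESeq2 called 4 of 7 higher, with Gabrb2 as the fourth, beside 14.1% of 17426 genes.

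Markers of spinal inhibitory neurons and of astrocytes moved the same way in this comparison, while those of spinal excitatory neurons were split. All 9 inhibitory neuron markers were called higher in the central axon libraries, where they summed to 207 to 573 CPM, against 1.36 to 8.97 CPM in batch 1 Cre somas with Gad2, Slc32a1, Slc6a5 and Lhx5 at 0 in every soma library. Of the 7 astrocyte markers, 6 were called higher, and 4 of the 11 nociceptor markers were called lower, beside 8.63% and 5.11% of all genes. Of 4 spinal excitatory neuron markers tested, 1 was called higher and 1 lower, with a median log2 fold change of -1.1. That list summed to 344 to 726 CPM in batch 1 Cre somas and 222 to 386 CPM in central axon Cre libraries. It was thus not particular to the cord here, and cannot show how RNA of excitatory cord neurons differed. Controls of the same 2 tissues, which hold no tagged ribosomes, differed in the same direction. Gabra3 had 953 counts in central axon controls and 2 in batch 1 soma controls, a ratio of 425 (117 to 3510). Gabrb1 had 4230 and 3, a ratio of 1260 (430 to 6100). Like the other counting intervals, these leave out the spread between libraries. The fitted log2 fold changes were 7.21 ± 2.44 and 8.87 ± 2.75. The batch 1 soma controls held few genes, 4934 to 7889 at 10 or more counts. Median CPM there was 0.0539 for Gabra3 and 0.0613 for Gabrb1, beside 5.49 and 8.42 CPM in batch 2 soma controls. Of 3 subunits tested by edgeR in the controls none was called, beside 0.0% of 9202 genes, and 2 had an unadjusted p under 0.05, beside 12.4%. DESeq2, which tested 6, called 4, beside 7.98% of 9979 genes. The part of spinal RNA in the difference between Cre compartments was not tested.

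In sciatic nerve no subunit was called above batch 2 Cre somas. Gabra5 was called lower: it had 95 counts in somas and 0 in nerve, so the soma mean was at least 2.57-fold higher than the floor of 3 counts per nerve library. The other values, nerve over soma, were -2.29 ± 1.09 for Gabra2, -1.92 ± 1.01 for Gabrg3, -0.15 ± 1.14 for Gabra3 and -0.11 ± 0.82 for Gabrb1, and Gabrb2 and Gabrg1 did not pass the filter. So 1 of 5 tested was called lower, beside 12.5% of 15467 genes. The fit with all 4 groups of the batch called none, and the share of all genes called in it is not given here. DESeq2 called Gabra2 as well as Gabra5, so 2 of 7 lower beside 17.8% of 18974 genes. Gabra2 and Gabra5 had groups that did not overlap, where 36.7% of genes tested did not. Of the nociceptor markers 9 of 11 were called lower in nerve, and all 5 Schwann cell markers were called higher (6710 to 17200 CPM against 309 to 586 CPM). Over all genes 12.5% were called lower and 18.7% higher. Spinal inhibitory neuron markers summed to 0.730 to 1.56 CPM in nerve, with Gad2, Slc32a1, Slc6a5, Lhx5 and Sall3 at 0. In the controls, nerve against soma, edgeR called none of 5 subunits beside 0.0802% of 13715 genes, 1 had an unadjusted p under 0.05, beside 9.78%, and DESeq2 called 1 of 5, beside 5.72%. The central and peripheral comparisons share no library but differ in batch, and the difference between them was not tested.

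**Figure D5:**
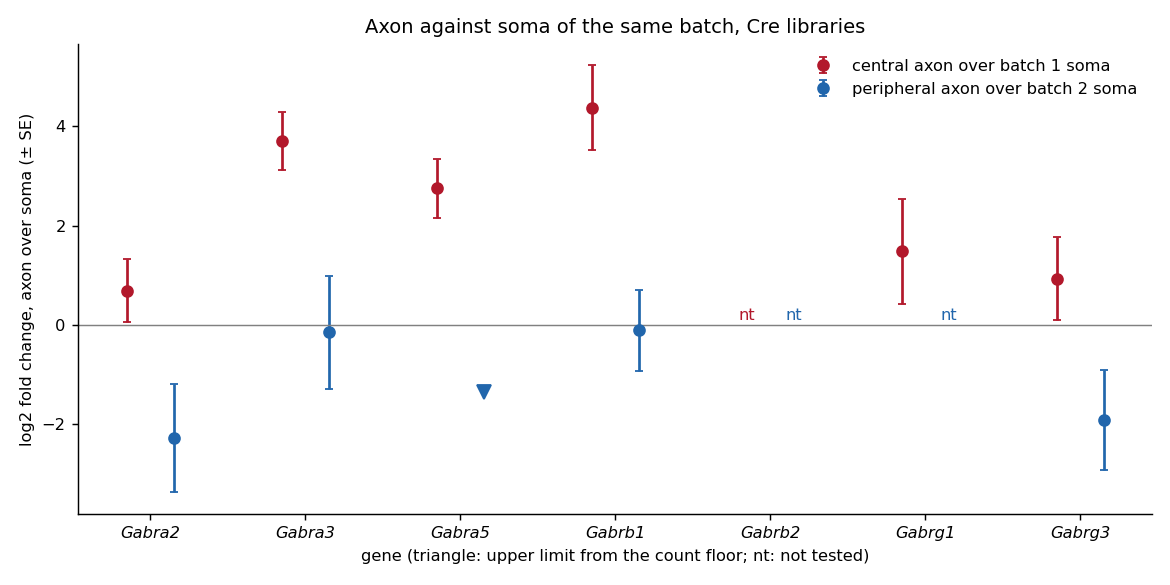
Log2 fold change (± SE) of axon over soma Cre libraries of the same batch for each subunit, 4 libraries a group. Gabra3, Gabra5 and Gabrb1 are at 2.75 to 4.38 in the central comparison, and in the peripheral one the values tested lie between -2.29 and -0.11, with Gabra5 drawn as an upper limit.

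Of the 9 other subunit genes listed, 7 had more than 3 counts in at least 1 library. Gabra4, an alpha gene that starts beside Gabrb1, was at 6.89 to 22.4 CPM in central axon Cre libraries and at 0 to 20.9 CPM in their controls, with at most 0.195 CPM in batch 1 Cre somas. It rose in central axons against somas (641 counts against 2, ratio 289, interval 79.8 to 2400, edgeR adjusted p = 0.00151). Gabrd, the delta subunit of extrasynaptic receptors, was at 1.22 to 2.12 CPM in batch 2 Cre somas and at 0 to 6.10 CPM in nerve Cre libraries. It had 0 counts in every central axon control and 118 in the Cre libraries, of which 3 had more than 3 counts, so the Cre mean was at least 8.33-fold higher than the floor of 3 counts per control library, and it did not pass the filter for a test. Gabrq, the theta subunit, was at 0.359 to 10.7 CPM in central axon Cre libraries, with more than 3 counts in all 4, and at 0 to 7.68 CPM in their controls (log2 0.14 ± 1.92, not called by edgeR), with at most 0.292 CPM in batch 1 Cre somas. Gabrr1, a rho subunit, was at 0.514 to 1.25 CPM in batch 2 Cre somas. The other rho genes Gabrr2 and Gabrr3 reached 0.830 and 4.69 CPM, both in batch 2 soma controls, and Gabre reached 2.08 CPM, in a nerve Cre library. Gabra6 and Gabrp had 0 counts in all 31 libraries.

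Genes that make and carry GABA were high in the samples with spinal cord. Of 9 listed, 8 were tested between central axon and soma Cre libraries and 7 rose, beside 8.63% of all genes. The median log2 fold change was 5.00 (4.6 with genes at 0 set to their bound) beside 0.05 for all genes. Slc6a11, the GABA transporter GAT-3 of astrocytes, was at 106 ± 70.1 CPM in central axons and 0.541 ± 0.342 CPM in somas (log2 7.10 ± 0.61, edgeR adjusted p = 3.73e-05). Gad2, which makes GABA, was at 22.5 to 60.2 CPM in central axon Cre libraries and at 0 in all 8 Cre soma libraries, at least 144-fold higher than the batch 1 soma floor (edgeR adjusted p = 7.39e-05). The central axon controls held as much Gad2 (2.35 to 199 CPM), and between Cre and control none of the 8 genes was called by edgeR or DESeq2 and 1 had an unadjusted p under 0.05. Over all genes these shares were 0.0141%, 2.6% and 4.82%. Gad1, Gad2 and Slc32a1 are in this list and in that of the spinal inhibitory markers. In nerve, Gad1, the other GABA-making enzyme, fell against batch 2 somas, from 3.38 ± 0.382 to 0.878 ± 0.341 CPM (log2 -2.14 ± 0.69, edgeR adjusted p = 0.0352). The nerve values, 0.664 to 1.39 CPM, lie near the floor of 0.199 to 0.732 CPM. Only 2 of the 4 nerve Cre libraries had more than 3 counts of Gad1.

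Among the chloride transporters, Slc12a5 (KCC2), which lowers chloride in mature central neurons and is known to be lacking in sensory neurons, was at 55.5 to 320 CPM in central axon Cre libraries, 258 to 304 CPM in their controls and at most 1.19 CPM in Cre somas of both batches. It rose in central axons against somas (log2 8.16 ± 0.81, edgeR adjusted p = 0.000104), as did the chloride channel Clcn2 (3.21 ± 0.91, edgeR adjusted p = 0.0347). Central axon controls had 0 to 41.7 CPM of Clcn2, beside 18.5 to 58.2 CPM in Cre libraries. Slc12a2 (NKCC1), the importer, was at 12.8 to 52.5 CPM in central axon and 26.2 to 173 CPM in batch 1 soma Cre libraries. It rose in nerve against batch 2 somas, 132 ± 72.7 against 34.7 ± 4.52 CPM (log2 1.69 ± 0.32, edgeR adjusted p = 0.00240). Nerve controls had 87.4 to 184 CPM of Slc12a2, the range of the Cre nerve libraries (79.2 to 234 CPM). Batch 2 soma controls had 48.1 to 175 CPM of it, above the Cre somas of that batch (30.7 to 40.1 CPM). Stk39, a kinase that activates Slc12a2, was also higher in nerve than in batch 2 somas (0.83 ± 0.24, edgeR adjusted p = 0.0228). In that comparison 3 of 6 genes tested in this list were called higher and none lower, beside 18.7% and 12.5% of all genes. Nerve controls had 181 to 210 CPM of Stk39, beside 137 to 226 CPM in nerve Cre libraries. In batch 2 somas Stk39 was at 131 to 184 CPM in controls and 76.4 to 124 CPM in Cre.

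The metabotropic GABA-B receptor is a pair of G protein coupled subunits, both detected in every Cre soma library. Gabbr1 was at 130 to 256 CPM and Gabbr2 at 92.2 to 179 CPM in batch 2 Cre somas. In nerve, Gabbr2, the subunit that couples to G proteins, fell against somas (-1.49 ± 0.50, edgeR adjusted p = 0.0425). So did Kctd8, an auxiliary subunit (-2.37 ± 0.55, edgeR adjusted p = 0.00723), while the related Kctd12 rose (2.72 ± 0.59, edgeR adjusted p = 0.00519). Nerve controls had 20.4 to 103 CPM of Kctd12, beside 17.9 to 54.4 CPM in nerve Cre libraries. In batch 2 somas Kctd12 was at 10.6 to 72.0 CPM in controls and 2.55 to 9.99 CPM in Cre. Kctd8 was at 0 to 44.9 CPM in nerve controls and 8.32 to 50.2 CPM in nerve Cre libraries. Between central axon and soma none of the 5 genes was called by edgeR, 1 had an unadjusted p under 0.05 and DESeq2 called 1. Over all genes, edgeR called 1990 of 14480, 4229 had an unadjusted p under 0.05 and DESeq2 called 3752 of 17426.

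Of 16 scaffold and trafficking genes, 2 rose and 4 fell in central axons against somas, beside 8.63% and 5.11% of all genes. Hap1, a huntingtin-associated protein that helps recycle GABA-A receptors, was at 276 to 931 CPM in central axon Cre libraries and 6.82 to 19.7 CPM in somas (log2 5.04 ± 0.45, edgeR adjusted p = 4.88e-05), and its central axon controls had 655 to 1330 CPM. Shisa7, an auxiliary subunit, rose by 2.17 ± 0.56 (edgeR adjusted p = 0.0232), and was at 30.3 to 76.7 CPM in central axon controls and 11.2 to 45.2 CPM in Cre libraries. Gabarap and Gabarapl2, small proteins of receptor trafficking and autophagy, were lower in central axons, by -1.44 ± 0.38 (edgeR adjusted p = 0.0246) and -1.35 ± 0.34 (edgeR adjusted p = 0.0210). In nerve against batch 2 somas 1 rose and 3 fell, beside 18.7% and 12.5% of all genes. Trak2, a mitochondrial transport adaptor that also binds the receptor, rose (1.90 ± 0.41, edgeR adjusted p = 0.00511). Nerve controls had 39.1 to 88.8 CPM of Trak2, beside 68.3 to 257 CPM in nerve Cre libraries. Gabarapl2 (-1.74 ± 0.28, edgeR adjusted p = 0.000964) and Gabarapl1 (-1.53 ± 0.34, edgeR adjusted p = 0.00620) fell. The glycine receptor genes Glra1 and Glra2, of the other fast inhibitory receptor of the cord, were higher in central axon libraries than in somas (6.07 ± 0.99 and 6.61 ± 1.08, edgeR adjusted p = 0.00252 and 0.00263). Both were at most 0.794 CPM in Cre somas of both batches. Central axon controls had 17.8 to 43.2 CPM of Glra1 and 0 to 59.4 CPM of Glra2. The central axon Cre libraries had 8.4 to 25.1 and 16.3 to 34.3 CPM.

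Over all 6 lists, 14 of 41 genes tested rose and 4 fell in central axons against somas. The median was 0.48, beside 0.05 for all genes. In nerve against somas 5 of 34 rose and 6 fell. Over all genes, 8.63% rose and 5.11% fell in the first comparison, and 18.7% and 12.5% in the second. With library size alone as the scaling these splits became 18 and 2, and 6 and 3, and with DESeq2's scaling in edgeR the nerve split became 4 and 7. Among all genes tested, the splits under these scalings were 2146 and 293, 3309 and 1469, and 2665 and 2366. Over all genes the median shifted by 0.45 and 0.20 with library size alone in these comparisons.

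Genes among those whose log2(CPM + 1) followed a subunit most closely over the 31 libraries, out of 18259 genes, are given as a description, since libraries share tissue, batch and depth. For Gabra2 they included Adgrl2 (Pearson r = 0.86) and Hoxc10 (0.85). For Gabra3 they were Prrt4 (0.92), Ikzf4 and Tub (both 0.91). Gabra5 was followed by Rapgefl1 (0.94), Ptchd4 (0.93) and Cbln1 (0.92), and Gabrb1 by Zic4 (0.90), Syt13 (0.88) and Chst10 (0.86). For Gabrb2, with few counts, they included A730046J19Rik (0.90) and Sox21 (0.83). Gabrg1 was followed by Elovl2 (0.93), Fam155a and Chodl (both 0.92), and Gabrg3 by Slc46a1, Ctsf (both 0.83) and Zfp862-ps (0.82). Among the subunits themselves, r was highest for Gabra3 with Gabra5 (0.82) and Gabra5 with Gabrg1 (0.81) and lowest for Gabra2 with Gabrb2 (0.35).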

How the data were processed

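The data were 2 tables of raw counts per gene, deposited by the authors as whole numbers, one table per batch with one column per library and nothing normalized or pooled. Per the submitters' processing notes the tools include STAR 2.7.2b and the build is mm10. The counting program and its handling of strand and of reads that match several genes are not given in the sources used here. Per the labels' protocols, RNA yields were estimated in picograms for axons, and libraries were made with the SMART-Seq v4 kit, with no molecular identifiers named, so losses before sequencing are outside the floors and intervals.

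Groups came from genotype, tissue and batch in the labels. Of the batch 1 soma controls, 2 columns share one name and are called replicates a and b, with no number. All 55536 identifiers matched GENCODE M21, and 0 columns were left out. Each comparison was fitted on its own groups with edgeR 4.0.16 in R 4.3.3 (filterByExpr defaults, TMM, quasi-likelihood test, Benjamini-Hochberg over all genes tested, called at an adjusted p under 0.05). The SE was taken from the fold change and the F statistic. The fit was tested on simulated counts. The alternatives were DESeq2 1.42.0, other scalings, no filter, all groups of a batch in one fit, a replicate block, and leaving out each library. No 2 libraries of a group agreed within sampling noise. Promoter windows are from RefSeq.

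The members, the GABA lists and the marker lists were chosen with earlier results of these data known. All 7 members were named in every comparison. Of each GABA list, at most the 2 called genes per direction with the smallest adjusted p were named, with further levels chosen after their values were seen. For likeness of pattern, the 3 genes with the highest Pearson r were taken per member, of which 1 each for Gabra2 and Gabrb2 is not reported here. Of the marker lists, 1 spinal excitatory marker of 6 had no match and was left out.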

Additional observations from a re-analysis of the deposited data

Results flagged for a closer look

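Dixon's test for a single outlying library was applied to 42 groups of member values with 4 libraries, and 6 were past the 95% critical value, where chance marks about 1 in 20, and 1 of the 6 was past it by construction, as its other 3 libraries had 0 counts. In batch 1 soma control replicate 1, Gabra2 was at 37.7 CPM, while the other controls had at most 0.376 CPM. Central axon control replicate 1 was high for Gabra3, at 54.2 CPM beside 8.64 to 15.0 CPM, and for Gabrb2, at 10.1 CPM beside at most 0.102 CPM. In batch 2 soma control replicate 7, Gabrb1 was at 83.6 CPM beside 6.31 to 10.2 CPM. Gabrb2 was at 0.375 CPM in batch 2 Cre soma replicate 5, the one library of that group with a count, so that the test marks it whatever its value. The same gene was at 1.49 CPM in batch 2 soma control replicate 5, where the others had at most 0.247 CPM. Control replicate 5 is the deepest of the batch 2 soma controls, with 18.1 M counts beside 3.60 to 4.52 M.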

How the results depend on the processing

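Of the members' log2 fold changes, 466 values under an alternative moved by less than their SE and 26 by more, and all 273 group levels moved by less than 1 SD. In one fit over all 4 groups of a batch, the number of members called became 2 (batch 1 soma, Cre against control), 0 (central axon against soma, Cre), 0 (peripheral axon against soma, Cre) and 6 (central axon against soma, controls), with 1, 3, 1 and 0 in the separate fits. The share of all genes called in these joint fits, or in the fits that left out 1 library, is not given here. Those counts of members can therefore not be set against it. DESeq2 called 2 members lower in the peripheral Cre comparison with soma, where 17.8% of all genes were. It called 4 in the central and 1 in the peripheral control comparison with soma, beside 7.98% and 5.72% of all genes. Leaving out 1 library gave 0 to 3 members in batch 1 somas, 0 to 1 in batch 2 somas and 3 to 4 in the central Cre comparison with soma. Of the GABA lists, library size alone called 2 genes higher in batch 1 and 1 lower in batch 2 somas, Cre against control. Among all genes it called 2224 higher and 20 lower in batch 1, and 16 higher and 241 lower in batch 2. DESeq2 called 1 of 25 and 5 of 39 there, beside 1498 of 11054 and 1527 of 18634 genes. In the peripheral Cre comparison with soma it called 17 of 42, beside 7221 of 18974 genes. Among controls it called 8 of 33 in the central and 1 of 35 in the peripheral one, beside 7.98% and 5.72% of genes. The cause of these changes was not tested. With the replicate block, fitted on the 2 shared numbers, 0 members were called in batch 1 somas, Cre against control. With no filter the call there was Gabrg1 in place of Gabrg3. Under the block no other call of a member changed. In no comparison did every pair of libraries of the same number have r over 0.1 (r from -0.116 to 0.236). In the central Cre comparison with soma, r for the same number was 0.229, -0.049, 0.111 and 0.197. Pairs of other numbers ran from -0.252 to 0.213 there. With so few pairs this rule cannot show whether the numbers mark shared animals, and the main fits were unpaired. For the peripheral axon against soma comparisons no numbers are shared, so no paired analysis was possible there. Depth limits the low values: 3 counts were 0.199 to 0.732 CPM in nerve Cre libraries and up to 0.833 CPM in batch 2 soma controls.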
